A study of Mus musculus with 9 samples.

Results

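The transcripts of the proteasome subunits were examined in whole-tumor RNA-Seq of 5 Myc-knockin and 4 p53-driven osteosarcomas (OS) from genetically engineered mice. The members are the protein-coding genes whose symbol is Psma, Psmb, Psmc or Psmd with a number, without the inducible subunits Psmb8, Psmb9 and Psmb10. They are 36 of the 55367 genes in the deposited table, with 16 genes of the core particle and 20 of the regulatory particle. The p53-driven tumors, named F187, F325, F331 and F368, arose in Col2.3-Cre/Trp53 fl/+ mice, in which the Cre recombinase is driven by the Col2.3 promoter, specific to osteoblasts, and 1 Trp53 allele is floxed. The Myc-knockin tumors, named M351, M408, M9, M624 and M664, carry the same Cre and the same floxed Trp53 allele, and in addition a Lox-Stop-Lox (LSL) allele of the Myc mutant T58A that Cre switches on. All were spontaneous tumors, and both groups therefore lack an arm without Cre or with unaltered Trp53. Nothing in the labels gives the age of the mice. The study reports a shorter median time to sacrifice for Myc-knockin than for p53-driven mice. Age at harvest and genotype therefore cannot be told apart here. The labels also do not say that each tumor came from a separate animal, so the p values measure the spread between these 9 samples.

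The proteasome degrades proteins that carry a ubiquitin chain. Its barrel-shaped core particle has outer rings of alpha subunits (Psma genes) that gate the entry and inner rings of beta subunits (Psmb genes), of which Psmb5, Psmb6 and Psmb7 carry the chymotrypsin-like, caspase-like and trypsin-like catalytic sites. The regulatory particle caps the barrel: its base holds the ring of Psmc ATPases that unfold a substrate and the ubiquitin receptors and scaffolds Psmd1, Psmd2 and Psmd4, and its lid holds the deubiquitinase Psmd14 and its scaffold. The transcription factor Nfe2l1 raises the subunit genes together when proteasome activity is short. Psmd5, Psmd9 and Psmd10 fall under the naming rule but are chaperones that build the base and leave the finished particle. Psma8, a testis-specific alpha subunit, and Psmb11, the thymus-specific beta subunit, also fall under it and are not constitutive subunits.

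Expression is given as CPM, counts scaled by edgeR to the TMM-normalized library. The knocked-in gene had 46.2, 43.5, 67.1 and 60.4 CPM in F187, F325, F331 and F368 and 270, 520, 144, 1045 and 905 CPM in M351, M408, M9, M624 and M664. Every Myc-knockin tumor thus lay above every p53-driven tumor for Myc (log2 fold change 3.41, standard error 0.59, edgeR adjusted p = 0.0217, against 2.60 and adjusted p = 0.0300 without M624 and M664). Total counts ranged from 2716322 to 17073285 per tumor, but 12 satellite-repeat genes took 44.3% of them in F187, 67.9% in M351, 23.2% in M408 and 81.0% in M9, and at most 0.0242% elsewhere. The members together had 1875 counts in M9, the thinnest library for them, and 87212 in M624, and their median count was 46 and 2338.5. The floor of 3 counts stood at 2.39 CPM in M9 and at 0.114 CPM in M624. M624 and M664 stood apart in another way, since Rn7sk, a small RNA that lacks a poly(A) tail, stood at 5.33 and 9.32 CPM there (of counts outside the satellite genes) and was never under 8858 CPM elsewhere. Both are Myc knockin, so the genotype and whatever sets this pair apart cannot be told apart within it, and the main results are given with and without the pair. Osteoblast markers were present in all tumors, with a summed level of 65600 to 141700 CPM in the p53-driven and 3621 to 41430 CPM in the Myc-knockin tumors. All 10 of these markers had a log2 fold change below 0 and 2 were called lower (adjusted p under 0.05 and fold change over 1.5), as were 5 of 6 osteoclast markers, 3 of 9 macrophage markers and 1 of 7 leukocyte markers, beside 3.0% of all genes, and the part of this shift in the values of the proteasome genes was not tested. In bulk tissue, fewer cells of a type and less RNA per cell cannot be told apart.

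The promoters of 29 members were matched by symbol in the RefSeq promoter table (GRCm38.p6, 250 bases before to 50 after each start). Because the subunit genes are known to share control by Nfe2l1, 4 short motifs were searched on both strands. The core of the antioxidant response element, TGACNNNGC, to which Nfe2l1 and its relatives bind, was found in 16.1% of the members' promoters and 12.4% of all 32851 promoters. The 5 members that hold it are a pair of catalytic beta subunits, a base ATPase, a lid subunit and a base chaperone, and the matching stretches are shown here with the motif in capitals. In Psmd12 and Psmc6 the motif lies on the opposite strand, so that its reverse complement is in capitals.
Psmb5 (chr14:54618023-54618052, minus strand): cgtgaagttgTGACGTCGCggcgttgccag
Psmb6 (chr11:70525338-70525367, plus strand): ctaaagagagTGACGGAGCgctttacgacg
Psmc6 (chr14:45329587-45329616, plus strand): ccagccagtaGCTAAGTCAggcattgctca
Psmd12 (chr11:107479278-107479307, plus strand): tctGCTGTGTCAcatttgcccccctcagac
Psmd9 (chr5:123228149-123228178, plus strand): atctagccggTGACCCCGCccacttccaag
The canonical E-box CACGTG, the palindrome to which Myc with its partner Max binds, was found in the promoters of 2 members, which is 6.45% of the members' promoters and 7.15% of all promoters.
Psma4 (chr9:54950707-54950736, plus strand): ttctgcacagtcCACGTGggcagactgagc
Psmd9 (chr5:123228127-123228156, plus strand): tcatctgaaaacCACGTGgtctatctagcc
The NF-Y box CCAAT was in 38.7% of the members' promoters and 37.4% of all promoters, and the GC box GGGCGG in 58.1% and 35.7%. A match describes the letters of this window and shows neither a bound site nor its use, and the absence of a match says nothing of the factor.

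The subunit genes were expressed in every tumor, at levels that differed between genes more than between the groups. Per kilobase of annotated exon, the 34 members other than Psma8 and Psmb11 had a median level of 20.9 CPM/kb in the p53-driven tumors and 26.3 CPM/kb in the Myc-knockin tumors. The core and regulatory particles were at similar levels, with medians of 24.0 and 20.4 CPM/kb in the p53-driven and 26.2 and 26.3 CPM/kb in the Myc-knockin tumors. Of these genes, the highest level in the p53-driven tumors was that of the beta subunit Psmb2, 74.3 ± 17.9 CPM/kb (SD, n = 4). Psmc5, a base ATPase, followed with 41.2 ± 6.99 CPM/kb and the alpha subunit Psma6 with 39.6 ± 10.7 CPM/kb, a pair that differ by less than their spread. The lowest of the 34 were the chaperones Psmd9 (2.40 ± 0.20 CPM/kb) and Psmd5 (3.57 ± 0.55 CPM/kb) and the subunits Psma5 (3.87 ± 1.21 CPM/kb), Psma3 (3.92 ± 0.26 CPM/kb) and Psmb3 (4.75 ± 1.43 CPM/kb). The exon length is the union of all annotated transcripts, so that a gene with long rare transcripts such as Psmd9 (7248 bases) is set low. Psma5, Psma3 and Psmb3 also share sequence with other loci: 39.3%, 20.9% and 32.3% of their 76-base stretches occur in other annotated genes too, where the counting could have split the reads. Such sharing reached 36.1% in Psmb5 and 24.0% in Psmb7, and 22 of the 35 members tested shared no stretch. The values of these 5 genes are therefore uncertain. Among the testis and thymus members, Psma8 had 0.52 CPM/kb in the p53-driven tumors, and Psmb11 had between 0 and 11 counts in each tumor and was too low to test.

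The comparison of Myc-knockin with p53-driven tumors asks whether the proteasome genes differ with the oncogene. Of the 35 members tested, edgeR called 0, where it called 5.27% of the 15365 genes tested, 2.26% as higher and 3.0% as lower in the Myc-knockin tumors. At an unadjusted p under 0.05 there were 7 members, all higher in the Myc-knockin tumors (Psma3, Psma5, Psma8, Psmb3, Psmc4, Psmd7 and Psmd9), against 26.8% of all genes in either direction and 14.9% in this direction. DESeq2 called 5 of these 7 higher (Psma3, Psma5, Psma8, Psmb3 and Psmc4), beside 17.2% of all genes and 9.98% as higher, and limma-voom called Psma8 higher, beside 10.8% of all genes and 4.32% as higher. Within edgeR, 2 members (Psma3 and Psmc4) were called higher with upper-quartile normalization (4.07% of all genes), the same 2 with at least 10 counts in every tumor (8.46%), Psma8 with all genes of at least 1 count (0.457%) and Psmc4 after subtraction of the genomic background (4.29%). At an adjusted p under 0.10 the count was 4 (14.6% of all genes). At an adjusted p under 0.05 the count was 0 with library size alone (0.885%) and without the satellite genes (3.81%). At that threshold it was also 0 without muscle, red cell, immunoglobulin and mitochondrial genes (5.42%). That fit drops only the rows of those genes and leaves any reads from other cells on the members. The log2 fold change was above 0 for 27 members and above the all-gene median of 0.14 for 25. Its median over the members was 0.26, with 0.27 in the core particle and 0.23 in the regulatory particle. By limma-voom, which gives each library a quality weight, 19 members were above and 16 below 0, and the median was 0.073 (0.13 in the core and 0.072 in the regulatory particle), where that of all genes was -0.038. There 1 member, Psmb2, was lower at an unadjusted p under 0.05 (15.8% of all genes) and 4 were higher (13.4% of all genes). A change over 1.5-fold in either direction was seen in 12 members, 34.3% of those tested, and in 53.5% of all genes. The groups did not overlap for 1 member that was higher, Psma3, and for none that was lower, while they did not overlap in 5.41% of all genes that were higher and 7.54% that were lower. The standard error of the log2 fold change had a median of 0.31 over the members and 0.45 over all genes. The 95% interval included 0 for 28 members, and for 15 it lay within 2-fold in either direction, while for the rest it reached beyond 2-fold.

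**Figure D1:**
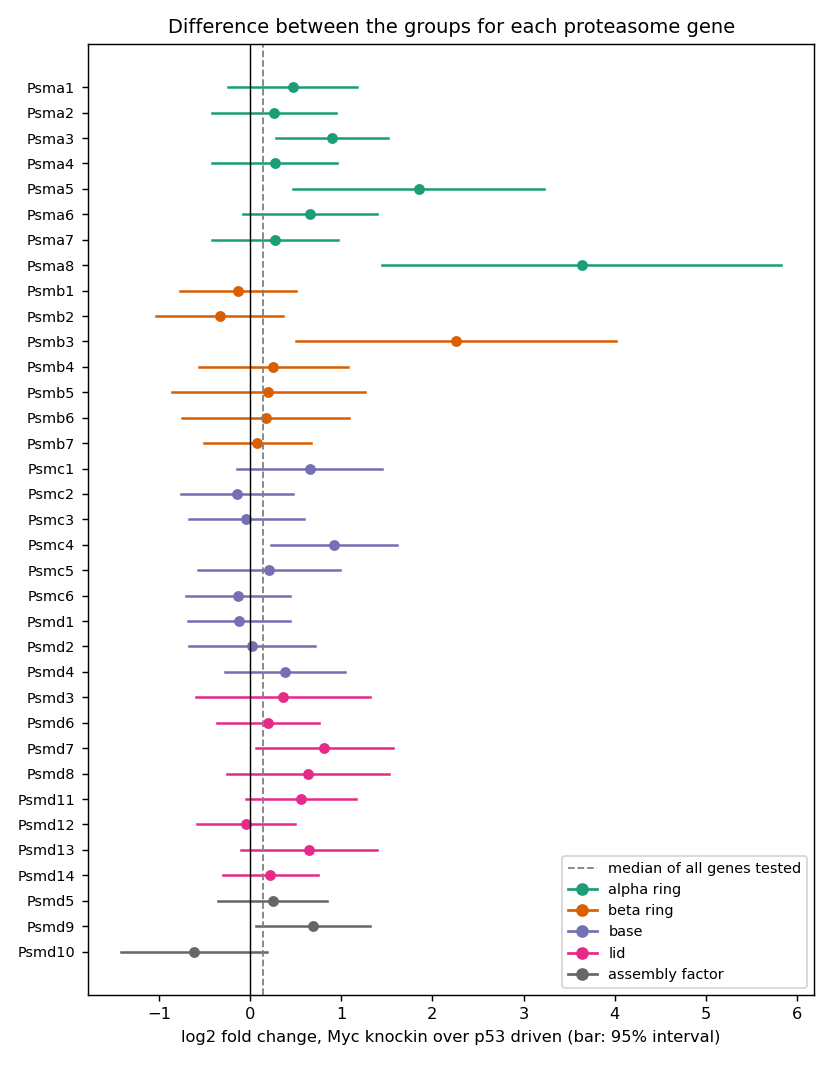
The log2 fold change of each of the 35 proteasome genes tested, Myc knockin over p53 driven, is shown by a point and its 95% interval by a bar, coloured by the part of the proteasome, with the median of all genes (0.14) as a dashed line. All 8 alpha ring genes lie to the right of that line, and Psma8, Psmb3 and Psma5 lie farthest right with the longest bars.

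Over the 9 tumors the alpha ring had the highest median of the 5 groups of genes. All 8 of its genes had a log2 fold change above the all-gene median, with a median of 0.56 (0.33 without M624 and M664 and 0.34 by limma-voom), and none was called by edgeR. Psma3 had 13.8, 15.6, 16.2 and 15.4 CPM in the 4 p53-driven tumors, in the order given above, and 32.0, 26.7, 16.7, 36.7 and 29.4 CPM in M351, M408, M9, M624 and M664. Even the lowest Myc-knockin tumor, M9, was thus just above the p53-driven range (log2 fold change 0.90, standard error 0.28, adjusted p = 0.0755). The Psma3 value in M9 rests on 21 counts, where 4.79 reads were expected from genomic background, so the separation there is uncertain. This gene was chosen after its values were seen. Without M624 and M664 its log2 fold change was 0.79 (adjusted p = 0.106). Psma5, likewise chosen after its values were seen, had 2.77, 5.45, 6.06 and 6.20 CPM in the p53-driven tumors and 9.85, 9.89, 3.19, 39.6 and 28.7 CPM in the Myc-knockin tumors. M624 and M664 were far above the rest for this gene, and M9 lay within the p53-driven range (log2 fold change 1.85, standard error 0.63, adjusted p = 0.0943, against 0.66 and adjusted p = 0.402 without the pair). Its pseudogene Psma5-ps, with which it shares sequence, had 9.88, 11.3, 10.8 and 10.3 CPM in the p53-driven tumors. In the Myc-knockin tumors Psma5-ps had 12.9, 14.8, 11.15, 41.5 and 31.2 CPM, and the part of the sharing in the Psma5 values was not tested. Psma8 had 2.77, 0.31, 1.73 and 0.36 CPM in the p53-driven and 4.31, 12.3, 0.80, 15.4 and 37.2 CPM in the Myc-knockin tumors, with the largest log2 fold change of the members (3.64, standard error 1.00, adjusted p = 0.0564). Its 4 highest tumors were Myc knockin, but these values rest on 7, 4, 20 and 3 counts in the p53-driven tumors and on 7 in M351 and 1 in M9. In the last pair the reads expected on Psma8 from genomic background were 2.78 and 3.07. The remaining alpha genes, Psma1, Psma2, Psma4, Psma6 and Psma7, had log2 fold changes of 0.26 to 0.65 with standard errors of 0.31 to 0.33, and of -0.11 (Psma7) to 0.48 (Psma6) without the pair, and M9 was the lowest Myc-knockin tumor for each.

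**Figure D2:**
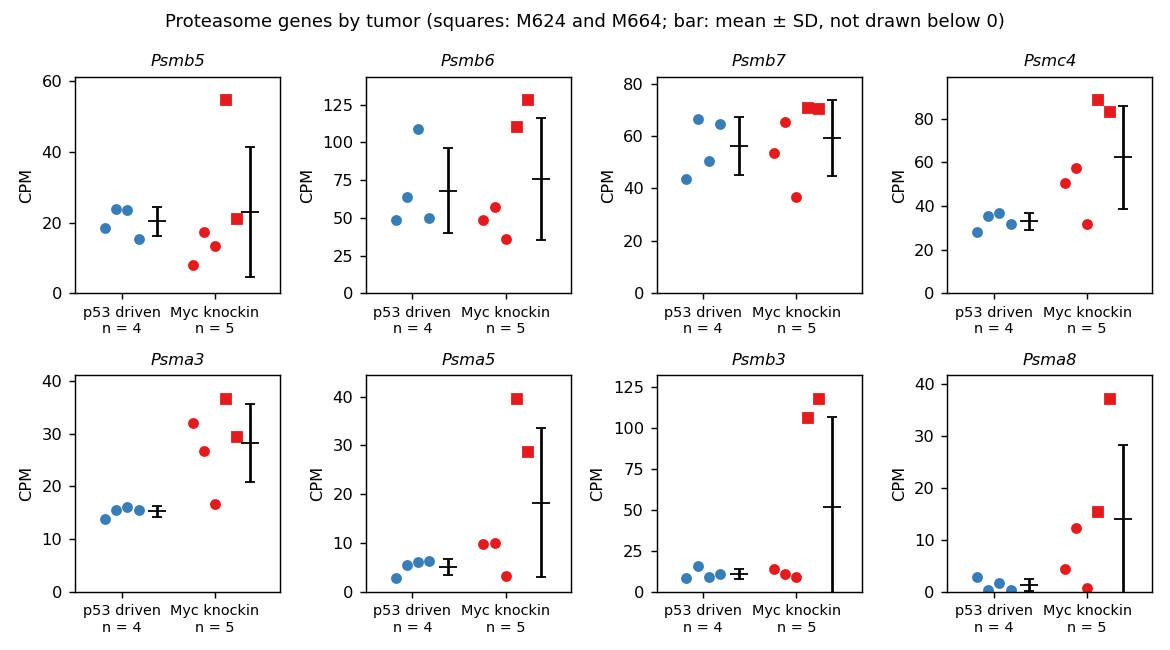
CPM in each tumor is plotted for the 3 catalytic beta subunits, Psmc4 and the 4 core particle genes with the largest log2 fold changes, with the mean ± SD beside the points and M624 and M664 as squares. For Psmb3 the squares stand at 106 and 118 CPM while the other 7 tumors stay between 8.30 and 15.6 CPM, and for Psma3 all 5 Myc-knockin tumors are above the p53-driven points.

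The beta ring was divided. Its 7 tested genes had a median log2 fold change of 0.17, with 5 above 0, and none was called by edgeR. By limma-voom the median was -0.23, with 1 gene above 0. The catalytic subunit Psmb5 had 18.6, 23.8, 23.7 and 15.4 CPM in the p53-driven tumors and 8.002, 17.4, 13.5, 54.6 and 21.0 CPM in the Myc-knockin tumors. The groups overlapped, and M624 alone was above the p53-driven range (log2 fold change 0.20, 95% interval -0.85 to 1.26, adjusted p = 0.823). Psmb6 had 48.6, 64.2, 109 and 50.1 CPM in the p53-driven and 48.6, 57.0, 35.9, 110 and 128 CPM in the Myc-knockin tumors (log2 fold change 0.17, 95% interval -0.75 to 1.09, adjusted p = 0.83). Psmb7 had 43.5, 66.5, 50.3 and 64.7 CPM in the p53-driven and 53.6, 65.2, 36.7, 70.6 and 70.2 CPM in the Myc-knockin tumors (log2 fold change 0.08, 95% interval -0.51 to 0.67, adjusted p = 0.881). The signs of all 3 catalytic subunits turned without the pair: without M624 and M664 their log2 fold changes were -0.55, -0.46 and -0.044, with adjusted p values of 0.301 to 0.935. With a single tumor left out the signs turned too. Psmb5 was at -0.35 without M624, Psmb6 at -0.085 without M664 and Psmb7 at -0.044 without F187. Psmb2 and Psmb1, structural beta subunits, had the lowest values of the core. Psmb2 had 84.1, 113, 62.3 and 99.0 CPM in the p53-driven and 50.5, 68.3, 42.2, 104 and 87.6 CPM in the Myc-knockin tumors (log2 fold change -0.33, standard error 0.32, adjusted p = 0.530, against -0.66 and adjusted p = 0.198 without the pair). Psmb1 had 99.1, 175, 121 and 107 CPM against 99.7, 115, 74.1, 128 and 154 CPM (log2 fold change -0.13, standard error 0.29, adjusted p = 0.805, against -0.31 without the pair). Psmb3 was at the other end, with 8.30, 15.6, 9.17 and 10.6 CPM in the p53-driven tumors and 14.2, 10.8, 8.76, 106 and 118 CPM in the Myc-knockin tumors. The log2 fold change of 2.26 (standard error 0.80, adjusted p = 0.105) came from the pair, since it was 0.094 (adjusted p = 0.874) without it. Psmb4 followed the same order at a smaller scale, with 133 and 139 CPM in M624 and M664 and 45.4 to 86.2 CPM in the other 7 tumors, and it shares no sequence with other genes. Without the pair, 1 of the 7 beta genes was above 0 and the median of the ring was -0.37, while that of the alpha ring was 0.33, values not compared by a test.

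The 9 genes of the base of the regulatory particle had a median log2 fold change of 0.02, with 5 above 0, and none was called by edgeR. The direction depended on the pair and on the tool, since the median was -0.18 without M624 and M664, with 4 of 9 above 0, and -0.24 by limma-voom. The ATPase Psmc4 had 28.0, 35.6, 36.8 and 32.0 CPM in the p53-driven tumors and 50.5, 57.5, 31.9, 88.4 and 82.9 CPM in the Myc-knockin tumors. The Myc-knockin tumors other than M9 were above the p53-driven range (4 of 5, log2 fold change 0.92, standard error 0.31, adjusted p = 0.0968, against 0.57 and adjusted p = 0.213 without the pair). Psmc1, another ATPase, had 39.1, 114, 46.0 and 62.2 CPM against 84.3, 110, 63.7, 124 and 131 CPM, and F325 lay among the Myc-knockin tumors (log2 fold change 0.66, standard error 0.36, adjusted p = 0.271, against 0.47 without the pair). The lowest of the base were the ATPases Psmc2 and Psmc6. Psmc2 had 65.2, 104, 71.5 and 85.8 CPM in the p53-driven and 57.9, 94.7, 47.0, 83.7 and 84.5 CPM in the Myc-knockin tumors (log2 fold change -0.15, 95% interval -0.76 to 0.47, adjusted p = 0.775). Psmc6 had 99.5, 117, 115 and 93.1 CPM against 86.2, 142, 83.7, 97.6 and 74.96 CPM (log2 fold change -0.13, 95% interval -0.70 to 0.43, adjusted p = 0.779). Of the members tested, 2 had a lower mean log2 CPM in M624 and M664 than in the other 3 Myc-knockin tumors. These were Psmc6 and the lid gene Psmd12, and single tumors overlapped for both. The other base genes, the ATPases Psmc3 and Psmc5, the scaffolds Psmd1 and Psmd2 and the ubiquitin receptor Psmd4, had log2 fold changes of -0.12 to 0.38 and standard errors of 0.26 to 0.35, and of these Psmc5 (0.21) and Psmd2 (0.02) were at -0.29 and -0.32 without the pair.

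The lid had a median log2 fold change of 0.46, with 7 of its 8 genes above the all-gene median and none called by edgeR. Without M624 and M664 the median was 0.22, and by limma-voom 0.15. Psmd7, the partner of the deubiquitinase Psmd14, had 52.9, 46.7, 48.7 and 43.0 CPM in the p53-driven tumors and 38.8, 101, 52.6, 116 and 109 CPM in the Myc-knockin tumors. M408, M624 and M664 were about 2-fold above the p53-driven tumors, M9 was within their range and M351 was below it (log2 fold change 0.82, standard error 0.34, adjusted p = 0.157, against 0.51 and adjusted p = 0.357 without the pair). Psmd13 had 28.4, 37.1, 42.1 and 22.7 CPM against 41.9, 47.6, 25.5, 62.6 and 76.5 CPM (log2 fold change 0.65, standard error 0.34, adjusted p = 0.243, against 0.31 without the pair). At the low end were Psmd12 and Psmd6, further subunits of the lid's scaffold. Psmd12 had 72.7, 99.2, 97.7 and 72.2 CPM in the p53-driven and 72.0, 111, 74.1, 85.3 and 72.2 CPM in the Myc-knockin tumors (log2 fold change -0.043, 95% interval -0.58 to 0.50, adjusted p = 0.934). Psmd6 had 54.9, 84.6, 51.1 and 56.7 CPM against 65.3, 72.3, 54.2, 87.7 and 74.2 CPM (log2 fold change 0.20, 95% interval -0.36 to 0.75, adjusted p = 0.652). The catalytic lid subunit Psmd14 had a log2 fold change of 0.22 with the smallest standard error of all members, 0.24, and Psmd3, Psmd8 and Psmd11 had 0.37, 0.64 and 0.56, which were -0.36, 0.21 and 0.49 without the pair. Among the base chaperones the values went both ways, with Psmd9 at 0.69 (adjusted p = 0.149), Psmd5 at 0.25 and Psmd10 at -0.62 (adjusted p = 0.302). Psmd9, which shares 25.5% of its exon bases with an overlapping gene, had 15.6 to 19.0 CPM in the p53-driven and 16.0 to 36.9 CPM in the Myc-knockin tumors.

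**Figure D3:**
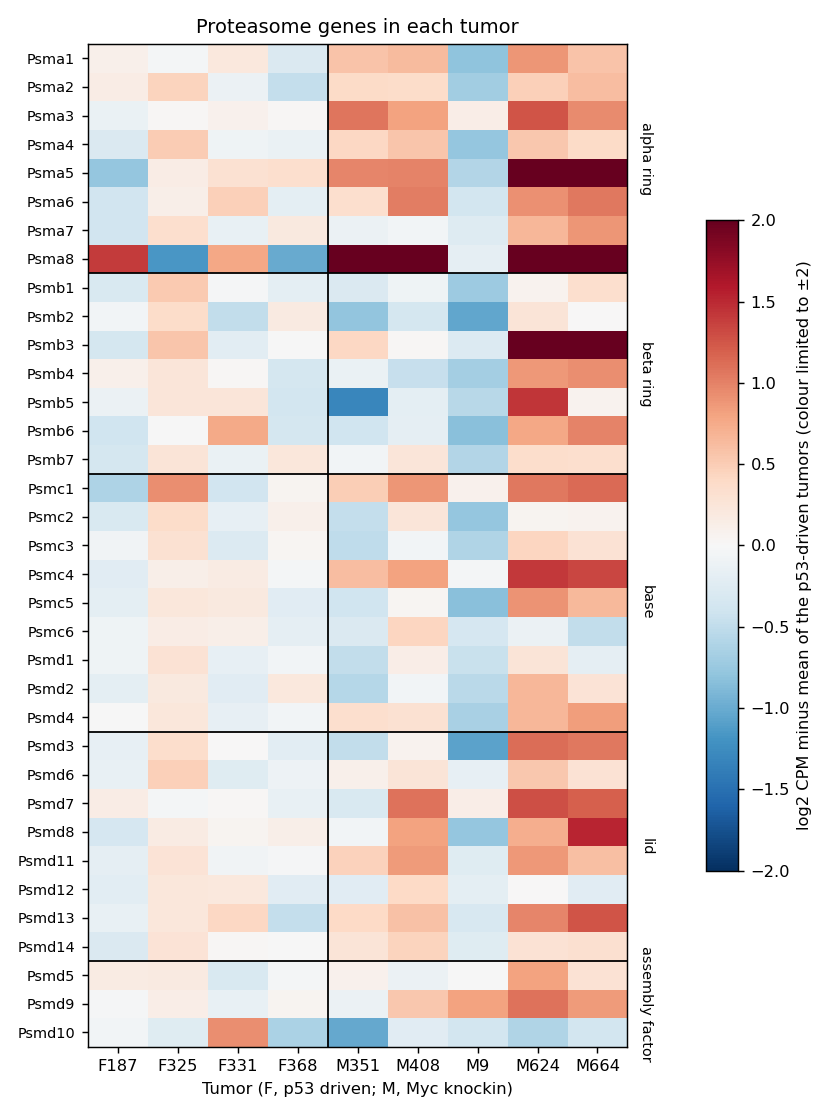
Each row is a proteasome gene and each column a tumor, and the colour gives log2 CPM minus the mean of the 4 p53-driven tumors, limited to a range of 2 in either direction. The columns of M624 and M664 are red for most rows, and the column of M9 is blue for most rows, with 33, 31 and 4 of 35 genes above the p53-driven mean.

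The median level of the members moved from tumor to tumor. By it the Myc-knockin tumors differed from one another more than their group differed from the p53-driven group. The median deviation of the 35 members from the p53-driven mean was -0.16, 0.23, 0.0094 and -0.060 on the log2 scale in F187, F325, F331 and F368. In the Myc-knockin tumors it was -0.062 in M351, 0.31 in M408, -0.44 in M9, 0.78 in M624 and 0.61 in M664. The 3 Myc-knockin tumors other than the pair thus spanned a range below and above the p53-driven tumors, and M624 and M664 lay above all others. Over all genes tested the same median stayed between -0.029 and 0.038 in the 9 tumors. The members did not all move alike within a tumor. The alpha and beta ring medians were 0.49 and -0.29 in M351 and 0.72 and -0.17 in M408. They were -0.48 and -0.68 in M9, 0.90 and 0.78 in M624 and 0.91 and 0.34 in M664. The SD of the deviations over the members was 0.63, 0.68, 0.39, 0.89 and 1.06 in these 5 tumors. The members' summed expression was 1850, 2543, 2069 and 1982 CPM in the p53-driven tumors and 1948, 2534, 1494, 3323 and 3245 CPM in M351, M408, M9, M624 and M664. In M624 and M664 against the other 3 Myc-knockin tumors, the mean log2 CPM was higher for 33 of 35 members, with a median difference of 0.66 where that of all genes was -0.031. The difference had a median of 0.86 in the core particle and 0.58 in the regulatory particle. It was largest for Psmb3 (3.32), Psma8 (2.66) and Psma5 (2.28), followed by Psmd3 (1.58), Psmb5 (1.44), Psmb6 (1.35) and Psmb4 (1.33). Its median was 1.44 over the 5 members with at least 20% of their 76-base stretches shared and 0.63 over the other 30. The part of such sharing in the difference was not tested. These comparisons within the Myc-knockin group describe libraries that were set apart by Rn7sk and carry no test. Low counts in M9 and M351 move with the pattern as well, as do satellite reads, and their part in it was not tested.

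Leaving tumors out moved the result in opposite directions. Over the 7 tumors without M624 and M664, edgeR called 0 of 34 members (4.61% of all genes), 1 had an unadjusted p under 0.05 (Psma3; 25.7% of all genes), and DESeq2 and limma-voom were not run. The median log2 fold change was then 0.083 over the members and 0.078 over all genes, with 0.025 in the core particle and 0.093 in the regulatory particle. Over the 5 tumors without F187, M351, M408 and M9, the libraries with satellite reads, the Myc-knockin group is M624 and M664 alone. There 10 of 35 members were called, all higher (Psma3, Psma5, Psma8, Psmb3, Psmb4, Psmc4, Psmd3, Psmd7, Psmd8 and Psmd9), beside 15.7% of all genes in this direction and 27.9% in either. The median log2 fold change was 0.70 over the members, with 0.77 in the core particle and 0.67 in the regulatory particle, and -0.0029 over all genes. Leaving out M9 alone gave 4 calls, Psma3, Psma5, Psma8 and Psmc4, all higher (6.03% of all genes, 10.4% in either direction), and no other single tumor left out gave a call. The fits without F325, F331 or F368 called only 0.0498%, 0.0375% and 0.0292% of all genes, so that 0 members there says little. Those without F187, M351, M408, M624 or M664 called 2.03%, 2.44%, 5.47%, 2.62% and 4.87%.

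**Figure D4:**
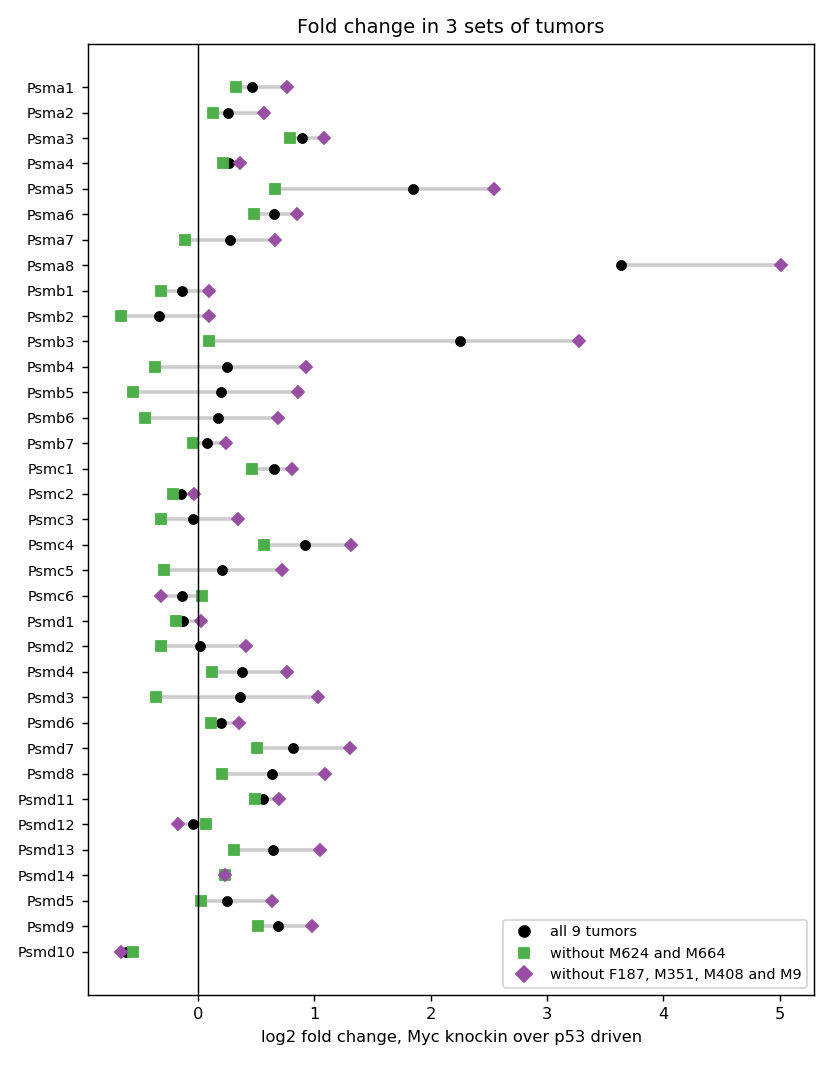
The log2 fold change of each proteasome gene, Myc knockin over p53 driven, is drawn for all 9 tumors (circles), without M624 and M664 (squares) and without F187, M351, M408 and M9 (diamonds). The diamonds, which compare M624 and M664 with 3 p53-driven tumors, lie to the right for most genes, and the squares of 6 of 7 beta ring genes lie left of 0. Psma8 has no square because it was too low to test without the pair.

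Of 40 other genes of the pathway in 6 lists, 20 were above and 20 below 0, and edgeR called 1. This was Psmb8, the inducible beta subunit that takes the place of Psmb5 in immune cells and after interferon, and it was lower in the Myc-knockin tumors, where 3.0% of all genes were called lower. Psmb8 had 21.7, 65.5, 34.3 and 30.03 CPM in the p53-driven tumors and 4.92, 8.97, 13.5, 4.34 and 8.38 CPM in the Myc-knockin tumors. The groups did not overlap (log2 fold change -2.28, standard error 0.42, adjusted p = 0.0229), and without M624 and M664 the value was -2.02 (adjusted p = 0.0468). Its call was lost when F325, F331 or F368 was left out, fits in which edgeR called 0.0498%, 0.0375% and 0.0292% of all genes, while with each tumor left out its log2 fold change stayed between -2.50 and -1.87. The leukocyte markers, the cells in which Psmb8 is known to be high, summed to 452 to 921 CPM in the p53-driven and 139 to 379 CPM in the Myc-knockin tumors, and their part in this value was not tested. The other inducible subunits were not called. Psmb9 had 5.53, 8.17, 5.80 and 2.07 CPM against 3.08, 2.02, 7.17, 2.86 and 2.98 CPM (log2 fold change -0.64, adjusted p = 0.495). Psmb10 had 9.88, 10.7, 12.97 and 6.81 CPM against 3.08, 5.49, 10.4, 45.4 and 46.0 CPM, so that its log2 fold change of 1.17 (adjusted p = 0.317) became -0.66 without the pair.

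None of the activators that can replace the regulatory particle on the barrel was called. Psme1 and Psme2, the interferon-inducible activator subunits, had log2 fold changes of -0.22 and -0.14, the nuclear activator Psme3 0.29 and the large activator Psme4 0.11, with standard errors of 0.33 to 0.59 and adjusted p values of 0.608 to 0.909. Without the pair Psme1 was at -0.74, Psme2 at -0.91, Psme3 at 0.075 and Psme4 at 0.53. Psme2 shares 46.6% of its stretches with its near-copy Psme2b, so that the values of both are uncertain. Psme2b, named after its values were seen, was the more abundant of them, with 31.6, 48.8, 53.7 and 30.6 CPM in the p53-driven and 5.54, 17.8, 14.3, 20.4 and 21.5 CPM in the Myc-knockin tumors. The groups did not overlap for Psme2b (log2 fold change -1.34, standard error 0.37, edgeR adjusted p = 0.0572, against -1.61 and adjusted p = 0.0600 without the pair), and DESeq2 (adjusted p = 0.00927) and limma-voom (adjusted p = 0.0420) called it lower. Among the 5 assembly chaperones of the core, 4 had an unadjusted p under 0.05, all higher, where 14.9% of all genes had one in this direction. None was called by edgeR, while DESeq2 called Psmg1, Psmg2, Psmg3 and Psmg4 higher (9.98% of all genes) and limma-voom called Psmg1 higher (4.32%). Psmg1, which pairs with Psmg2 to build the alpha ring and was chosen after its values were seen, had 11.5, 7.86, 11.8 and 14.4 CPM in the p53-driven tumors and 24.0, 23.1, 18.3, 42.0 and 25.7 CPM in the Myc-knockin tumors. The groups did not overlap (log2 fold change 1.24, standard error 0.32, adjusted p = 0.05005, just above the threshold, and 1.01 with adjusted p = 0.0668 without the pair). Psmg2 (1.42), Psmg3 (1.62) and Psmg4 (2.45) had larger log2 fold changes, which were 0.54, 0.61 and 0.0007 without the pair. Psmg3 had 6 counts in M351 and 4 in M9, where 3.23 and 3.56 reads were expected from genomic background. Psmg4 had 1 and 3 counts in these tumors and 5 in F187, and Psmg2 had 9 in M9. Pomp, the chaperone of the beta ring, had 53.3, 93.3, 53.5 and 60.7 CPM against 48.6, 63.2, 59.8, 57.5 and 59.8 CPM (log2 fold change -0.17, 95% interval -0.72 to 0.37, adjusted p = 0.690). Of the 14 associated factors, 7 were above 0 and none was called by edgeR. The deubiquitinase Uchl5, also chosen after its values were seen, had a log2 fold change of 1.03 (edgeR adjusted p = 0.0574, and 1.17 without the pair) with groups that did not overlap, and DESeq2 (adjusted p = 0.00879) and limma-voom (adjusted p = 0.0325) called it higher. Nfe2l1 had 172, 249, 111 and 208 CPM in the p53-driven and 67.1, 120, 53.4, 150 and 160 CPM in the Myc-knockin tumors (log2 fold change -0.74, standard error 0.38, edgeR adjusted p = 0.241). Its value was -1.12 without the pair (edgeR adjusted p = 0.120), and limma-voom called it lower with -1.25 (adjusted p = 0.0292). M351 and M9 were below the p53-driven range, and the groups overlapped. The list of transcription control genes had 3 genes above and 4 below 0, and that of the ubiquitin genes 3 and 3, with no call by edgeR in either.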

How the data were processed

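The samples are whole-tumor RNA of 4 p53-driven and 5 Myc-knockin tumors. Per the study's methods, stranded libraries were made from oligo-dT-enriched mRNA, with no difference stated for M624 and M664. Outside that pair Rn7sk, which lacks a poly(A) tail, was nonetheless never under 8858 CPM of counts outside the satellite genes. Whether all libraries were enriched alike was not tested. Per the labels and the study's methods, the reads were trimmed with Trim Galore, mapped with STAR to mm10 and assigned to genes by featureCounts. The authors deposited raw counts per gene, without normalization. The versions of STAR and featureCounts, the strand setting and how multi-mapping reads were treated are not given in the sources used here. No label names a column of the table: 6 of 9 are listed under their genotype in the study's supporting data, and M351, M9 and M664 were taken as Myc knockin from the letter M alone.

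Counts were fitted in R 4.3.3 with edgeR 4.0.16 (TMM, filterByExpr with a minimum count of 10, glmQLFit and glmQLFTest, no covariates), with Benjamini-Hochberg adjustment over 15365 genes. Log2 CPM used a prior count of 2. Intervals are 95%. DESeq2 1.42.0 and limma-voom (limma 3.58.1) were alternatives, beside other normalizations, filters and sets of tumors. The code was tested on simulated counts. Positions, exon lengths and shared 76-base stretches (the read length) came from the GENCODE annotation of the mm10 genome. Floors and intervals of single counts cover counting error only. The members and lists were chosen with earlier results of these data known. Values in every tumor are given for the catalytic beta subunits, for the 2 highest and 2 lowest log2 fold changes in the core, base and lid, for called genes, and for some genes of the other lists. Other genes named with their values were chosen after their values were seen. A batch was not named in the labels. Human, proteome and miRNA data of the study were not analysed here.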

Additional observations from a re-analysis of the deposited data

Results flagged for a closer look

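Of 62 groups of tumors screened, 31 genes in each genotype, 3 held a tumor far from the others by Dixon's criterion, which flags about 1 in 20 groups by chance. Psmb5 had 54.6 CPM in M624, and the next Myc-knockin tumor had 21.0 CPM. Psmd6 had 84.6 CPM in F325, and the next p53-driven tumor had 56.7 CPM. Psmb9 had 7.17 CPM in M9, and the next Myc-knockin tumor, M351, had 3.08 CPM. These Psmb9 values rest on 9 and 5 counts, where 4.50 and 4.08 reads were expected from genomic background.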

How the results depend on the processing

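No paired analysis was possible because the columns carry no replicate numbers. The number of proteasome genes called, 0 by edgeR, was 2 with upper-quartile normalization, 1 with all genes of at least 1 count, 2 with at least 10 counts in every tumor, 5 by DESeq2, 1 by limma-voom, 1 after subtraction of the genomic background, 4 at an adjusted p under 0.10 and 10 without F187, M351, M408 and M9. With each tumor left out it was 0 to 4, the 4 without M9. It stayed at 0 with library size alone, without the satellite genes, without other-cell genes and without M624 and M664. The share of all genes called by each of these fits stands beside the same counts in the Results. The median log2 fold change was 0.70 over the members, 0.77 in the core particle and 0.67 in the regulatory particle without F187, M351, M408 and M9, and 0.19 to 0.42, 0.19 to 0.43 and 0.17 to 0.36 with each tumor left out. Over all members it was 0.073 by limma-voom, 0.083 without M624 and M664, and 0.24 to 0.35 under the other normalizations, filters and tools.

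In the list of inducible subunits, with 1 called, the number was 0 with library size alone, 0 under a minimum of 10 counts per tumor (Psmb8 was then not tested), 2 without F187, M351, M408 and M9, and 0 to 1 with each tumor left out. The assembly chaperones, with 0 called, had 1 with upper-quartile normalization, with at least 10 counts, by limma-voom, after background subtraction and without other-cell genes, 4 by DESeq2, 4 without F187, M351, M408 and M9, and 0 to 1 with each tumor left out. The associated factors, with 0, had 1 with upper-quartile normalization, with at least 10 counts, by DESeq2, by limma-voom and after background subtraction, 3 without F187, M351, M408 and M9, and 0 to 1 with each tumor left out. The transcription control genes had 1 by limma-voom (Nfe2l1) and 1 without these 4 libraries, and the ubiquitin genes had 1 with upper-quartile normalization, 2 by DESeq2 and 3 without these 4 libraries. Of all genes, in either direction, the fit without these 4 libraries called 27.9%, DESeq2 17.2%, limma-voom 10.8% and upper-quartile normalization 6.32%. The share was 14.2% with at least 10 counts, 7.86% after background subtraction, 5.42% without other-cell genes and 0.885% with library size alone. With single tumors left out it was 0.0292% to 10.4%.

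Several small log2 fold changes turned sign. By limma-voom, Psmb5 was -0.38, Psmb6 -0.23 and Psmb7 -0.064. Without M624 and M664, Psmb5 was -0.55, Psmb6 -0.46, Psmb7 -0.044, Psmc6 0.039, Psmd12 0.073 and Psmb10 -0.66. Without F187, M351, M408 and M9, Psmb2 was 0.095, Psmb1 0.092, Psme1 0.29, Psme2 0.23 and Psme4 -0.81. Psmd12 was 0.049 with upper-quartile normalization, 0.063 with at least 10 counts and 0.081 after background subtraction. Psme4 was -0.28 with library size alone and -0.10 with all genes of at least 1 count. With each tumor left out, the values ranged from -0.35 to 0.41 for Psmb5, -0.085 to 0.51 for Psmb6, -0.044 to 0.21 for Psmb7, -0.25 to 0.079 for Psmb1, -0.14 to 0.038 for Psmd12, -0.40 to 0.0085 for Psme1, -0.44 to 0.17 for Psme2, -0.19 to 0.34 for Psme4, -0.28 to 0.055 for Pomp and -0.072 to 0.81 for Trp53. Myc was 3.63 with library size alone (adjusted p = 0.0659) and 3.15 to 3.66 with each tumor left out, with an adjusted p over 0.05 without F325, F331 or F368. The cause of these shifts was not tested.

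The choice of scaling moved the median of all genes, which was 0.14 with TMM, 0.24 with upper-quartile normalization, 0.027 with library size alone, 0.97 with all genes of at least 1 count and -0.038 by limma-voom. Removal of the satellite genes, the subtraction of the background and the removal of libraries were chosen with earlier results of these data known. Depth limits Psma8, Psmb11 and every value in M9, where the median member had 46 counts.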
